A study of Mus musculus with 8 samples.

Results

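The genes described here are 10 regulators and markers of mammary luminal progenitors, measured in sorted basal cells. They are the ETS-family transcription factors Elf5, Ehf and Elf3, the receptors Kit and Cd14, the retinaldehyde dehydrogenase Aldh1a3, the secreted proteins Lcn2, Chil1 and Mfge8, and the surface protein Plet1. They were chosen by name, with earlier results of these data known, and all 10 were found by Entrez identifier among the 27164 genes of the count tables. All 10 passed the low-count filter, which left 16526 genes to test.

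RNA came from basal cells sorted by flow cytometry from mammary glands of untreated female mice aged 10 weeks. Every group carried the Lgr5-GFP-IRES-CreERT2 allele on a C57BL/6 background, and the groups differed only in the sorted population. Cells were divided by Lgr5 (positive or negative) and by Tspan8, written T8 (high or negative), into 4 populations: Lgr5-T8-, Lgr5+T8-, Lgr5-T8hi and Lgr5+T8hi. There were 2 libraries of each, 1 in each of 2 batches. The sources used here do not say whether the batches held separate animals, or how many animals were pooled, so the p-values reflect only how these libraries vary, which may be technical.

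The mammary epithelium has an outer basal layer of contractile cells and an inner luminal layer. Luminal progenitors are the proliferative, hormone receptor-negative part of the luminal layer and give rise to the milk-secreting alveolar cells. Elf5 is the transcription factor best known for driving that alveolar fate, while Kit, Cd14, Aldh1a3 and Plet1 are used as markers of luminal progenitors, and Lcn2, Chil1 and Mfge8 encode products that epithelial cells secrete.

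Total counts per library ran from 24571300 to 38384875, so 3 counts correspond to 0.0782 CPM (counts scaled to the TMM-adjusted library size) in the largest library and 0.122 CPM in the smallest. The sort genes followed the labels. Tspan8 was at 150 to 289 CPM in T8hi libraries and 3.16 to 10.6 CPM in T8- libraries. Lgr5 was at 174 to 212 CPM in Lgr5+ libraries, 119 and 129 CPM in Lgr5-T8hi and 58.3 and 50.5 CPM in Lgr5-T8-, so the Lgr5- populations were not free of Lgr5 RNA. The summed level of 15 basal epithelial markers was 17070 to 25240 CPM and that of 15 pan-luminal markers was 1962 to 3972 CPM; basal markers were the more abundant in every library.

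The 10 genes spanned a wide range of abundance. Ordered by mean RPKM, a level per kilobase of the deposited gene length, over 8 libraries, Lcn2 stood highest at 1274 ± 302 (SD, n = 8). It was followed by Chil1 at 563 ± 296, Mfge8 at 276 ± 79.8 and Plet1 at 161 ± 69.6. Elf3 averaged 33.6 ± 8.15 RPKM and Cd14 15.6 ± 8.89 RPKM. At the bottom were Aldh1a3 at 3.42 ± 2.01, Kit at 2.30 ± 1.48, Elf5 at 1.45 ± 1.19 and Ehf at 1.40 ± 0.855 RPKM. The ranges over libraries of neighbouring genes overlapped at every step of this order except between Plet1 and Elf3. Lcn2 lay at the 99.9th and Chil1 at the 99.4th percentile of tested genes, against the 27.0th for Elf5 and the 26.4th for Ehf. The rarer genes varied most: the highest library exceeded the lowest 10.7-fold for Elf5, 8.29-fold for Kit and 7.39-fold for Aldh1a3, but 2.20-fold for Mfge8, 2.14-fold for Lcn2 and 1.82-fold for Elf3.

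**Figure D1:**
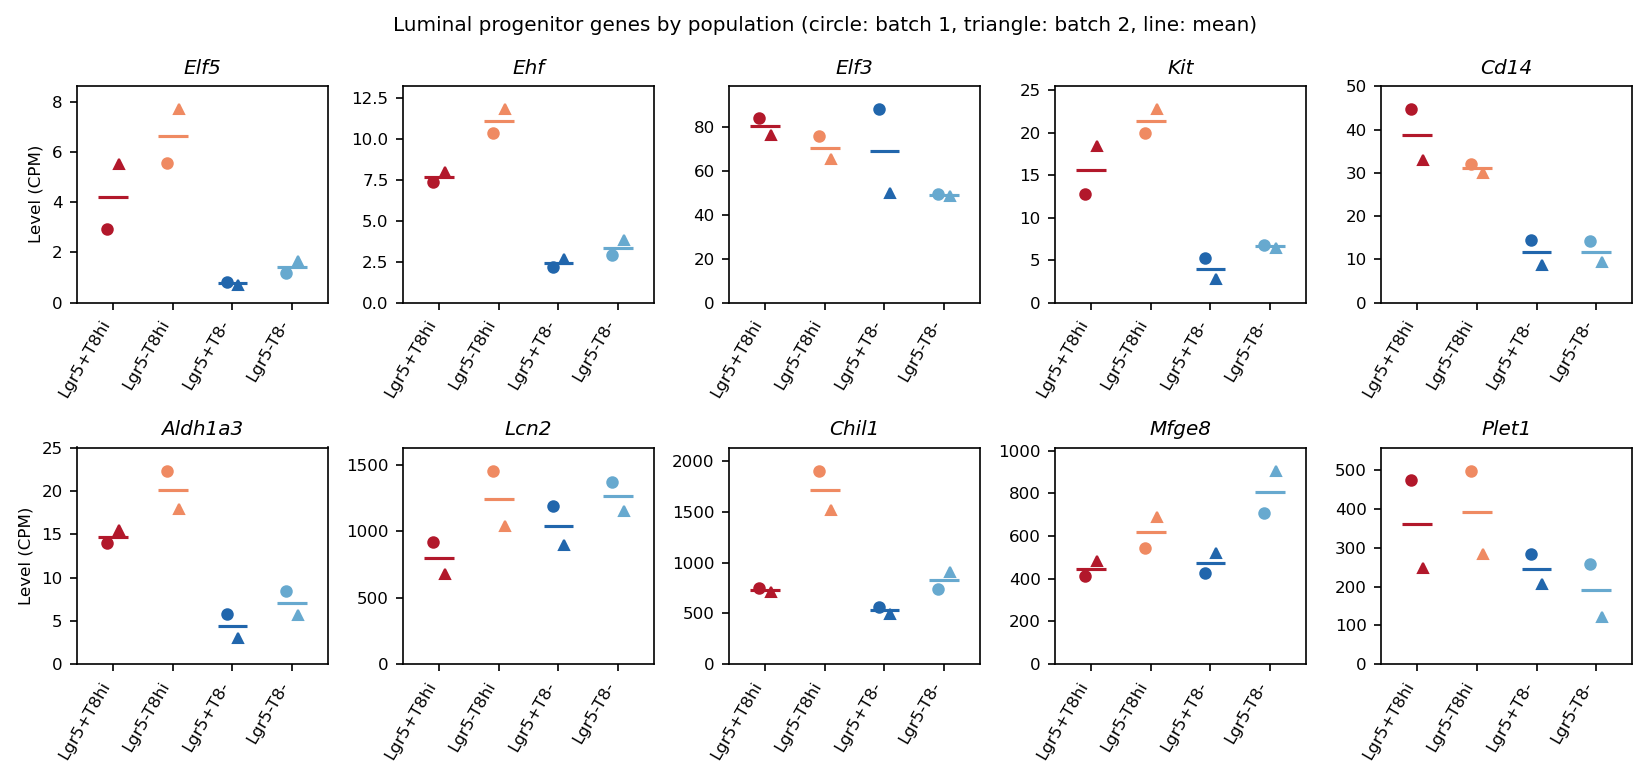
Level of each gene in CPM (linear axis from 0, scaled per gene) in the 4 sorted populations. Circles are batch 1, triangles batch 2 and lines the mean of the 2 libraries. Elf5, Ehf, Kit, Aldh1a3 and Cd14 have every T8hi library above every T8- library, whereas Lcn2 and Mfge8 do not.

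Libraries of T8hi cells had higher levels of the rare regulators and receptors than libraries of T8- cells. Of the 10 genes, 7 were higher in the mean of the T8hi populations than in the mean of the T8- populations, and 1 was lower (edgeR's quasi-likelihood test with batch in the model, adjusted p under 0.05). Among all genes tested, 9.13% were higher and 5.52% lower. The median log2 difference of the 10 genes was 1.19, beside -0.02 over all genes tested. In 5 of them (Elf5, Ehf, Kit, Aldh1a3 and Cd14) all 4 T8hi libraries lay above all 4 T8- libraries, a separation found in 4.08% of genes tested. Within each batch the separation held for 6, with Plet1 added, against 7.92% of genes tested. In these bulk libraries, fewer cells of a type and less RNA per cell cannot be told apart.

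Among the transcription factors, Elf5 and Ehf rose with Tspan8. Elf5, on chromosome 2 at 103412098 to 103450989 (GRCm38.p6), had 2.91 and 5.52 CPM in Lgr5+T8hi, 5.57 and 7.70 CPM in Lgr5-T8hi, 0.819 and 0.718 CPM in Lgr5+T8- and 1.18 and 1.65 CPM in Lgr5-T8-. T8hi and T8- libraries did not overlap, although the T8- values rest on few reads, from 18 to 45 counts. The difference was 4.91-fold (log2 2.30 ± 0.18 SE, adjusted p = 8.56e-06). Ehf, its neighbour in the ETS family, lies 108822 bases away on chromosome 2, at 103263431 to 103303275. Its levels were 7.35 and 7.98 CPM in Lgr5+T8hi, 10.4 and 11.8 CPM in Lgr5-T8hi, 2.20 and 2.67 CPM in Lgr5+T8- and 2.91 and 3.82 CPM in Lgr5-T8-, with little spread between libraries of a population. Ehf was 3.23-fold higher in T8hi (log2 1.69 ± 0.12, adjusted p = 3.22e-06).

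Elf3, an ETS factor broadly expressed in epithelia (chromosome 1, 135253574 to 135258472), did not pass the test. It had 84.3 and 76.4 CPM in Lgr5+T8hi, 75.9 and 65.3 CPM in Lgr5-T8hi, 88.2 and 49.9 CPM in Lgr5+T8- and 49.6 and 48.4 CPM in Lgr5-T8-. The highest of the 8 Elf3 values was a T8- library, replicate 1 of Lgr5+T8-, so the groups overlapped. The log2 difference was 0.38 ± 0.12 (adjusted p = 0.0713), and without that library it was 0.60 (adjusted p = 0.000538). DESeq2 gave an adjusted p of 0.0115 on all 8 libraries.

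Stretches of 250 bases before the annotated start are shown for Elf5, which has separate starts, and for Kit, both of which rose with Tspan8, and for Lcn2, which did not pass the test. They are RefSeq sequence of build GRCm38.p6, 5′ to 3′ on the gene's strand, and capitals mark GGAA, the core of ETS recognition sequences, or TTCC, the same core on the other strand. The windows lie at chr2:103411848-103412097 and chr2:103423818-103424067 (plus strand) for Elf5, chr5:75574737-75574986 (plus strand) for Kit and chr2:32387740-32387989 (minus strand) for Lcn2.
Elf5 first start: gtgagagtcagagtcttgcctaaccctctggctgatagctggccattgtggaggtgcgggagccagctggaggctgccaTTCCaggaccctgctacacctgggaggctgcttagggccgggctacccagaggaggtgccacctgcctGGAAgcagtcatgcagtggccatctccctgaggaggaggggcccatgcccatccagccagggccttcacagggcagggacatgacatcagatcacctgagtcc
Elf5 second start: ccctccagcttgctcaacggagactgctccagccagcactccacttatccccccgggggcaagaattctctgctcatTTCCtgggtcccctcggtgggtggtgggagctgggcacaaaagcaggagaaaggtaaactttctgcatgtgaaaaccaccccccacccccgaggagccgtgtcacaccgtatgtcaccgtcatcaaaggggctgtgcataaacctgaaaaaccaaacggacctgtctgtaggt
Kit: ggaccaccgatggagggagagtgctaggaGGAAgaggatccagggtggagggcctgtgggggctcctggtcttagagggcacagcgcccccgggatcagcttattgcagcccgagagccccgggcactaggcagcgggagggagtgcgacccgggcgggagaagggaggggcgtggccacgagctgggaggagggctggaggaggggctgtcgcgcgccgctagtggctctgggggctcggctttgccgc
Lcn2: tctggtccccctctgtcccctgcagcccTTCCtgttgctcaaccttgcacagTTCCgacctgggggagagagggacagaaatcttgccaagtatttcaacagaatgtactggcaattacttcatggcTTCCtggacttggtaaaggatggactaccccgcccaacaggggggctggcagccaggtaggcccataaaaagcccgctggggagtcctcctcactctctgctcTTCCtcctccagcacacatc
Of the 10 genes, 7 matched the promoter table, with 9 windows (those of the 2 Kit starts overlap), and Ehf, Aldh1a3 and Cd14 had no entry. The core was present in 9 of 9 windows and in 93.5% of the 32851 windows of all genes, with 1 to 4 matches per window (median 2, against 3 over all windows). The longer motif GGAAGT, searched on both strands and overlapping the core, was in 0 of the 9 windows and in 19.7% of all windows. TTCNNNGAA, the pattern bound by STAT factors, was in 0 of the 9 and in 7.02% of all. These are matches of letters in a short stretch and do not locate binding.

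Both receptors rose with Tspan8. Kit, the receptor tyrosine kinase for stem cell factor (chromosome 5, 75574987 to 75656722), had 12.8 and 18.4 CPM in Lgr5+T8hi, 19.99 and 22.8 CPM in Lgr5-T8hi, 5.26 and 2.75 CPM in Lgr5+T8- and 6.82 and 6.47 CPM in Lgr5-T8-. The lowest T8hi library was above the highest T8- library, and the difference was 3.50-fold (log2 1.81 ± 0.20, adjusted p = 0.00104). Cd14, a co-receptor that presents bacterial lipopolysaccharide to Tlr4 (chromosome 18, 36725064 to 36726815), had 44.7 and 32.9 CPM in Lgr5+T8hi, 32.1 and 30.04 CPM in Lgr5-T8hi, 14.6 and 8.81 CPM in Lgr5+T8- and 14.3 and 9.34 CPM in Lgr5-T8-. Cd14 was higher in T8hi (log2 1.59 ± 0.10, adjusted p = 2.82e-06). It was the only one of the 10 genes highest in Lgr5+T8hi in both batches, a pattern shown by 14.3% of genes tested.

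Aldh1a3, which makes retinoic acid from retinaldehyde (chromosome 7, 66390892 to 66427477), had 13.98 and 15.5 CPM in Lgr5+T8hi, 22.4 and 17.97 CPM in Lgr5-T8hi, 5.83 and 3.03 CPM in Lgr5+T8- and 8.52 and 5.73 CPM in Lgr5-T8-. Its T8hi libraries all lay above its T8- libraries, with a 3.104-fold difference (log2 1.63 ± 0.15, adjusted p = 1.02e-04).

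The abundant genes differed less. Chil1, a secreted chitinase-like lectin without enzyme activity (chromosome 1, 134182156 to 134190031), had 756 and 709.6 CPM in Lgr5+T8hi, 1909 and 1526 CPM in Lgr5-T8hi, 562 and 497 CPM in Lgr5+T8- and 745 and 906 CPM in Lgr5-T8-. Lgr5-T8hi stood well above the other populations, and the T8hi and T8- ranges overlapped. Averaged over Lgr5, Chil1 was 1.69-fold higher in T8hi (log2 0.76 ± 0.09, adjusted p = 2.40e-04). Plet1 (chromosome 9, 50494525 to 50505639) had 475 and 249 CPM in Lgr5+T8hi, 499 and 285 CPM in Lgr5-T8hi, 283 and 206 CPM in Lgr5+T8- and 259 and 122 CPM in Lgr5-T8-. Batch 1 was higher than batch 2 in every population, and the Tspan8 difference of 1.73-fold (log2 0.79 ± 0.09, adjusted p = 2.41e-04) was lost when batch was left out of the model (adjusted p = 0.27). Plet1 overlaps the long noncoding gene Plet1os, which had 1605 to 7902 counts per library. No source used here says whether counting used the strand, so the Plet1 values are uncertain.

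Lcn2 and Mfge8 did not follow the others. Lcn2, an iron-siderophore carrier of innate defence (chromosome 2, 32384637 to 32387739), had 920.3 and 678 CPM in Lgr5+T8hi, 1454 and 1035 CPM in Lgr5-T8hi, 1189 and 893 CPM in Lgr5+T8- and 1370 and 1153 CPM in Lgr5-T8-. T8hi and T8- values of Lcn2 were interleaved, and the log2 difference was -0.21 ± 0.07 (adjusted p = 0.0696). It passed without Lgr5-T8- replicate 1 (adjusted p = 0.0127) and with DESeq2 (0.0317). Mfge8, a milk fat globule protein that bridges phosphatidylserine and integrins (chromosome 7, 79133768 to 79149060), had 413 and 483 CPM in Lgr5+T8hi, 545 and 691 CPM in Lgr5-T8hi, 425 and 522 CPM in Lgr5+T8- and 709.8 and 906 CPM in Lgr5-T8-. Mfge8 was 1.17-fold lower in T8hi (log2 -0.23 ± 0.07, adjusted p = 0.0349). That call was lost without either library of Lgr5+T8hi, Lgr5-T8hi or Lgr5+T8-, with adjusted p from 0.0928 to 0.321.

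**Figure D2:**
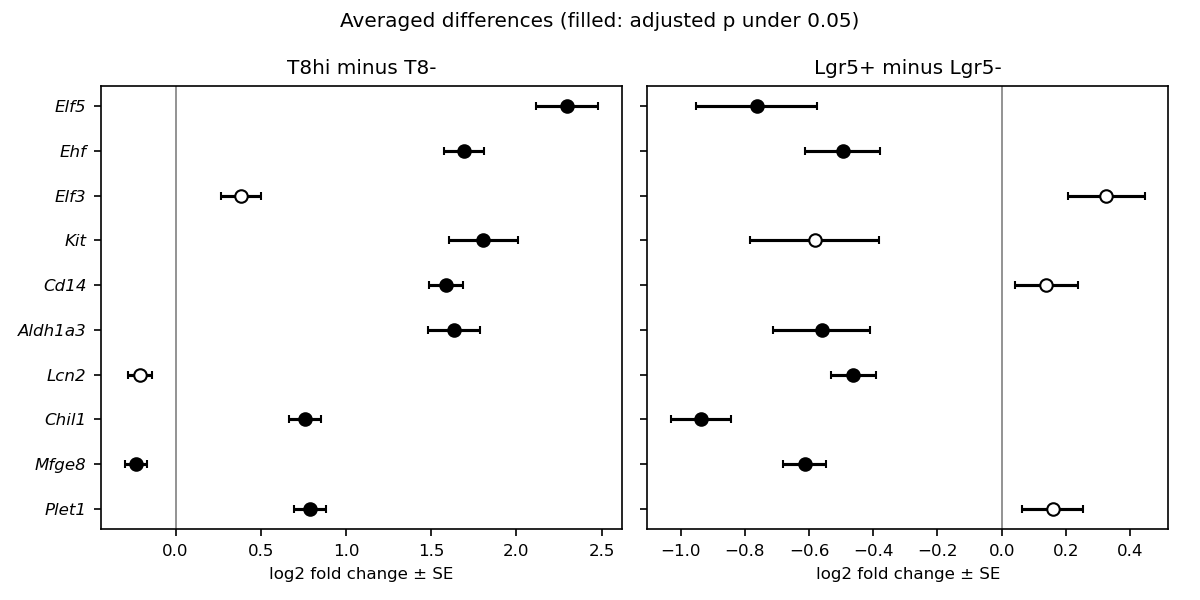
Log2 fold change with its SE from the model with batch, for T8hi minus T8- (left) and Lgr5+ minus Lgr5- (right), each averaged over the other marker. Filled points have an adjusted p under 0.05. Elf5 is farthest right at 2.30 on the left, and Chil1 is farthest left at -0.94 on the right.

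Libraries of Lgr5+ cells had lower levels of several of these genes. Averaged over Tspan8, 6 were lower and 0 higher in Lgr5+ than in Lgr5- (1 higher at an unadjusted p under 0.05, 0 higher with DESeq2 or limma-voom, and 7 lower with DESeq2), where 4.86% of genes tested were lower and 4.23% higher. Chil1 was 1.91-fold lower (log2 -0.94 ± 0.09, adjusted p = 9.74e-05) and Mfge8 1.53-fold lower (log2 -0.61 ± 0.07, adjusted p = 1.24e-04). Lcn2 was 1.38-fold lower (log2 -0.46 ± 0.07, adjusted p = 0.00136). Mfge8 was the 1 gene of the 10 with all Lgr5+ libraries below all Lgr5- libraries, against 2.21% of genes tested. The median of the 10 was -0.53, beside 0.01 over all genes.

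With batch left out of the model, only Chil1 of the 6 passed (adjusted p = 0.0193). The 3 remaining calls were close to the threshold. Elf5 was lower by a log2 difference of -0.76 ± 0.19 (adjusted p = 0.0250), Ehf by -0.50 ± 0.12 (adjusted p = 0.0200) and Aldh1a3 by -0.56 ± 0.15 (adjusted p = 0.0497). The Elf5 call was lost without Lgr5+T8hi replicate 1, either Lgr5-T8hi library, Lgr5+T8- replicate 2 or Lgr5-T8- replicate 1 (adjusted p 0.0511 to 0.144). That of Ehf was lost without any T8hi library or Lgr5+T8- replicate 1 (0.0720 to 0.120), and that of Aldh1a3 without any library but Lgr5+T8hi replicate 2 or Lgr5+T8- replicate 1 (0.0613 to 0.245). Kit was at -0.58 ± 0.20 (adjusted p = 0.139), and at -0.94 without Lgr5+T8- replicate 1 (adjusted p = 0.00360). DESeq2 called Kit lower on all 8 libraries (adjusted p = 0.0229). Elf3 at 0.33 ± 0.12 (adjusted p = 0.155), Cd14 at 0.14 ± 0.10 (0.455) and Plet1 at 0.16 ± 0.09 (0.362) did not pass. Elf3 passed without Lgr5+T8- replicate 2, at 0.49 (adjusted p = 0.00237).

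Taking the markers jointly, 6 genes (Elf5, Ehf, Kit, Aldh1a3, Plet1 and Chil1) were highest in Lgr5-T8hi in both batches, where 3.84% of genes tested were. Elf5, Ehf, Kit, Aldh1a3 and Chil1 were lowest in Lgr5+T8- in both batches, where 8.72% of genes were. Within T8hi, Elf5 in Lgr5+ differed from Lgr5- by a log2 value of -0.69 ± 0.22 (adjusted p = 0.124) and Ehf by -0.53 ± 0.15 (adjusted p = 0.0850), which did not pass. Kit (-0.46 ± 0.26, 0.553), Aldh1a3 (-0.44 ± 0.20, 0.381) and Plet1 (-0.13 ± 0.13, 0.787) did not pass in that comparison either. Of the 6 genes, only Chil1 did (-1.23 ± 0.13, 0.00161). Ehf passed there without either Lgr5-T8- library (adjusted p 0.0397 and 0.0485).

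The Tspan8 difference was called at each Lgr5 level. Within Lgr5+, 7 genes were higher and 1, Lcn2, was lower, beside 7.27% and 2.17% of genes tested. Within Lgr5-, the same 7 (Elf5, Ehf, Kit, Aldh1a3, Cd14, Plet1 and Chil1) were higher and Mfge8 was lower, beside 3.70% and 3.36%. Elf5 differed by 2.37 ± 0.28 within Lgr5+ and 2.22 ± 0.24 within Lgr5- on the log2 scale, Ehf by 1.66 ± 0.17 and 1.73 ± 0.16, and Cd14 by 1.74 ± 0.14 and 1.43 ± 0.14. Plet1 differed by 0.50 ± 0.13 and 1.08 ± 0.13, and Chil1 by 0.47 ± 0.13 and 1.05 ± 0.13. The call of Lcn2 within Lgr5+ (-0.38 ± 0.10, adjusted p = 0.0313) was lost without any library but those of Lgr5-T8- (0.0809 to 0.291). The call of Mfge8 within Lgr5- (-0.39 ± 0.09, adjusted p = 0.0259) was lost without Lgr5+T8hi replicate 2 or either Lgr5-T8hi library (0.0509 to 0.430).

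The test of the difference between those differences called 0 of the 10 genes in either direction, beside 2.18% of genes higher and 0.363% lower. Before adjustment, 1 had a positive and 3 had a negative interaction with p under 0.05, and DESeq2 and limma-voom called 0. The interaction was -0.58 ± 0.19 for Plet1 (adjusted p = 0.184) and -0.58 ± 0.19 for Chil1 (adjusted p = 0.174). It passed for Plet1 without Lgr5+T8- replicate 1 (0.0454) or Lgr5-T8- replicate 1 (0.0343), and for Chil1 without Lgr5-T8- replicate 2 (0.00311). Within Lgr5+, the call of Plet1 was lost without either Lgr5+T8hi library or Lgr5+T8- replicate 1 (adjusted p 0.165 to 0.225), and that of Chil1 without any Lgr5+ library (0.0760 to 0.321). Kit lost its call within Lgr5+ without either Lgr5-T8- library (0.0594 and 0.0647), and within Lgr5- without any Lgr5- library (0.0508 to 0.205).

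**Figure D3:**
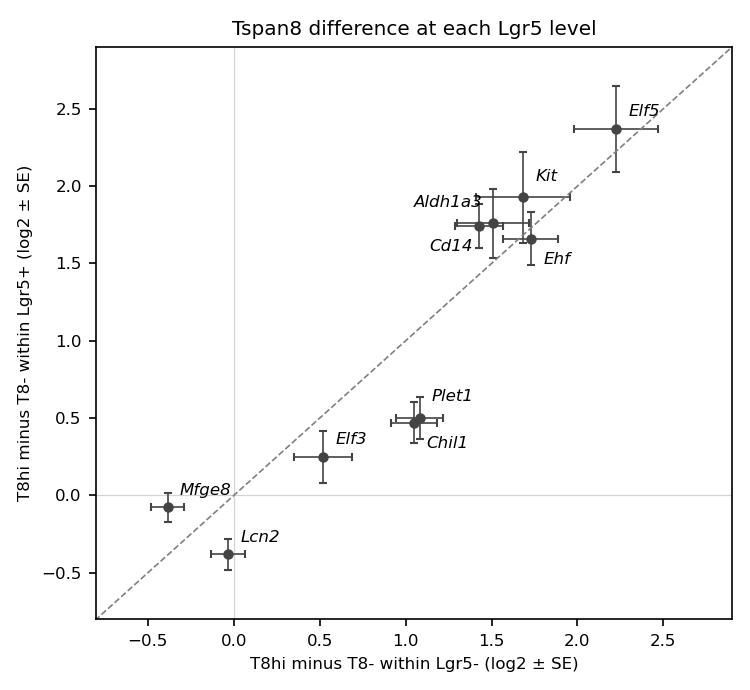
Log2 T8hi minus T8- difference within Lgr5- (horizontal) and within Lgr5+ (vertical) for each gene, with SE bars, and the line of equal differences dashed. Elf5, Ehf, Kit, Aldh1a3 and Cd14 lie near the line above 1.4 on both axes, and Plet1 and Chil1 lie below it.

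At each Tspan8 level, the genes that passed the test for Lgr5 encode secreted proteins, although others had differences of similar size with larger errors. Within T8hi, Chil1 (log2 -1.23 ± 0.13, adjusted p = 0.00161), Lcn2 (-0.64 ± 0.10, 0.00669) and Mfge8 (-0.46 ± 0.09, 0.0211) were lower in Lgr5+, and 0 genes were higher (1 at an unadjusted p under 0.05, and 0 with DESeq2). The background was 1.05% lower and 2.29% higher. Within T8-, Mfge8 (-0.77 ± 0.09, 0.000333) and Chil1 (-0.65 ± 0.13, 0.00986) were lower and 0 were higher (2 at an unadjusted p under 0.05, and 1, Plet1, with DESeq2), beside 5.05% lower and 3.81% higher. In the same comparison Elf5 was at -0.84 ± 0.31 (0.132), Kit at -0.70 ± 0.31 (0.236), Aldh1a3 at -0.69 ± 0.23 (0.109) and Lcn2 at -0.29 ± 0.10 (0.103), and DESeq2 called 4 genes lower, with Aldh1a3 (0.0487) and Lcn2 (0.0336) added. Without a library of T8hi the Mfge8 call within T8hi was lost (adjusted p 0.162 to 0.296). Chil1 lost its call within T8hi without Lgr5+T8hi replicate 1 (0.0540) and within T8- without Lgr5+T8- replicate 2 (0.101), and Lcn2 lost its call within T8hi without either Lgr5+T8hi library or Lgr5-T8hi replicate 1 (0.106 to 0.152).

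Batch differences were common over all genes tested, and some of these genes had them too. Elf5 and Mfge8 were higher and Cd14, Lcn2 and Plet1 lower in batch 2 than in batch 1, where 16.0% of genes tested were higher and 16.9% lower. Plet1 moved most, by -0.82 ± 0.09 on the log2 scale (adjusted p = 1.85e-04). Within batch 1 the T8hi minus T8- log2 value was 2.02 for Elf5, 1.78 for Ehf, 1.42 for Kit, 1.33 for Aldh1a3 and 1.39 for Cd14. Within batch 2 these were 2.56, 1.60, 2.27, 2.00 and 1.79, so all 5 were higher in T8hi in each batch. The batch call of Elf5 was lost without any of the T8hi libraries (adjusted p 0.117 to 0.255), that of Cd14 without Lgr5+T8hi replicate 1 (0.0574) and that of Mfge8 without Lgr5-T8hi replicate 2 (0.0548).

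After centring by batch, Elf5, Ehf, Kit and Aldh1a3 had pairwise Pearson correlations of 0.948 to 0.996 over the 8 libraries, which share population, batch and depth. The 10 genes did not share 1 profile: the lowest of their 45 pairwise values was -0.739, for Elf3 and Mfge8. Among the ETS factors, Elf3 had 0.515 with Elf5 and 0.491 with Ehf. Outside the 10, the genes most like the mean profile of the 10, among 10567 genes compared, were Cadps2 (r = 0.991), Csn3 (0.988), Ceacam1 (0.985), Aldoc (0.959) and Btn1a1 (0.958). Csn3 encodes the milk protein kappa-casein and averaged 68.0 ± 18.8 CPM (SD, n = 2) in Lgr5-T8hi and 38.2 ± 3.66 CPM in Lgr5+T8hi, against 13.7 ± 3.12 CPM in Lgr5-T8- and 7.87 ± 3.30 CPM in Lgr5+T8-. Btn1a1, a butyrophilin of the milk fat globule, had 9.54 ± 1.66, 6.61 ± 0.0581, 2.21 ± 0.781 and 1.84 ± 0.690 CPM in the same order. Most like the mean profile of the 3 ETS factors were Basp1 (0.996), C4b (0.987), Wfdc18 (0.985), Dapk1 (0.981) and Sulf2 (0.981).

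Other genes of luminal progenitors and alveolar cells moved in part. Of 24 listed, 22 were tested, and 8 were higher and 1 lower in T8hi, while 2 were higher and 4 lower in Lgr5+. Over all genes tested, 9.13% were higher and 5.52% lower in T8hi, and 4.23% higher and 4.86% lower in Lgr5+. Wfdc18, a secreted milk-associated protein, rose 5.74-fold with Tspan8 (log2 2.52 ± 0.13, adjusted p = 2.82e-06) and Csn3 rose by 2.31 ± 0.10 (2.35e-07). Itgb3, the integrin beta chain used to mark luminal progenitors, was lower by -0.64 ± 0.09 in T8hi (4.06e-04) and by -0.78 ± 0.09 in Lgr5+ (1.52e-04). Trf, encoding transferrin, was lower by -0.84 ± 0.08 in Lgr5+ (3.23e-05).

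The other ETS factors had no common direction: of 20 tested, 4 were higher and 4 lower in T8hi, beside 9.13% and 5.52% of all genes tested. Erg and Fli1, which endothelial and blood cells express, were higher by 1.54 ± 0.13 and 1.23 ± 0.12 on the log2 scale. Etv5, a target of growth factor signalling, was lower by -0.64 ± 0.08. Spdef, the ETS factor of secretory epithelium, was at 0.438 to 1.63 CPM and its difference of 0.57 ± 0.31 did not pass (adjusted p = 0.270).

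Among partners of the receptors, the share that passed was close to that of all genes tested, of which 9.13% were higher with Tspan8. Of 12 Kit partners, 1 was higher in T8hi, the kinase Lyn (log2 0.62 ± 0.11, adjusted p = 0.00179). Kitl, the Kit ligand, was abundant at 609 to 906 CPM and was lower in Lgr5+ (-0.31 ± 0.07, adjusted p = 0.0206). Of 9 tested genes of the Cd14 pathway, 1 was higher in T8hi, the lipopolysaccharide carrier Lbp (1.56 ± 0.15, 2.94e-05), while Tlr4 (0.41 ± 0.14, 0.0735) and Ly96 (0.38 ± 0.16, 0.151) did not pass. Of 19 retinoic acid genes, 7 were higher and 1 lower in T8hi, led by Cyp26b1, which degrades retinoic acid (1.05 ± 0.11, 6.83e-05), and the receptor Rara (0.38 ± 0.07, 0.00245). The other retinaldehyde dehydrogenases did not pass with Tspan8: Aldh1a1 was at -0.28 ± 0.23 (0.503) and Aldh1a2, at 0.159 to 0.519 CPM, at 0.45 ± 0.35 (0.452). Aldh1a1 was lower in Lgr5+ (-1.36 ± 0.23, 0.0153).

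Around the secreted proteins, 3 of 10 genes linked to Mfge8 were higher and 1 lower in T8hi, and 1 was higher and 4 lower in Lgr5+. The shares of all genes tested were 9.13% higher and 5.52% lower in T8hi, and 4.23% and 4.86% in Lgr5+. Edil3, the paralogue of Mfge8, was low at 0.0399 to 3.27 CPM, and all of its Lgr5+ libraries were below its Lgr5- libraries. The Mfge8 receptor chains Itgav (log2 -0.23 ± 0.08, adjusted p = 0.0767) and Itgb5 (-0.01 ± 0.07, 0.956) did not pass in T8hi. Of 10 tested genes related to Lcn2, 5 were higher and 1 lower in T8hi. Slpi, a secreted protease inhibitor, was higher in T8hi within Lgr5- (1.38 ± 0.10, 9.85e-06) but did not pass within Lgr5+ (0.17 ± 0.10, 0.359), and the interaction was called (-1.21 ± 0.14, 0.00164). It was higher with Lgr5 (1.35 ± 0.07, 1.12e-06), whereas Lcn2 was lower with Lgr5. The Lcn2 receptor Slc22a17 was at 38.9 to 46.0 CPM (-0.05 ± 0.07, 0.694). Of 8 listed chitinase-like relatives and Chil1 receptors, 2 were tested and 0 passed.

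Markers of other cells differed between the populations too. With Tspan8, 10 of 15 pan-luminal markers, 7 of 11 hormone-sensing luminal markers, 8 of 10 fibroblast markers, 5 of 10 endothelial markers and 7 of 11 tested leukocyte markers were higher, none of these was lower, and 9 of 15 basal markers were lower. Over all genes tested these shares were 9.13% higher and 5.52% lower. The counts differed by Lgr5 level. Within Lgr5+, 10 of 10 endothelial, 9 of 11 leukocyte and 9 of 10 fibroblast markers were higher in T8hi, with median log2 differences of 2.17, 2.57 and 1.86. Within Lgr5-, 0 endothelial and 0 leukocyte markers were called and 7 fibroblast markers were higher and 1 lower, with medians of 0.13, 0.08 and 1.04. The interaction was called higher for 2 endothelial, 6 leukocyte and 3 fibroblast markers. Pan-luminal markers were higher at both levels, 8 of 15 within Lgr5+ and 10 of 15 within Lgr5-. Summed levels of pan-luminal markers were 2532 to 3972 CPM in T8hi and 1962 to 3473 in T8-, and those of hormone-sensing markers 218 to 283 and 148 to 190. Fibroblast markers summed to 740 to 1275 CPM in T8hi and 363 to 749 in T8-, endothelial markers to 110 to 428 and 75.3 to 161, and leukocyte markers to 56.2 to 141 and 41.8 to 93.7. Adipocyte markers summed to 98.8 to 329 and 47.0 to 75.5 CPM, most of it from Fabp4, and erythroid markers to 3.49 to 18.3 and 1.67 to 5.18 CPM. Of 4 adipocyte markers tested, 2 (Fabp4 and Lpl) were higher and 1 (Lep) was lower in T8hi. Of the 6 listed, 3 were below 1 CPM in every library. The part of luminal and other cells in the differences of the 10 genes was not tested.

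**Figure D4:**
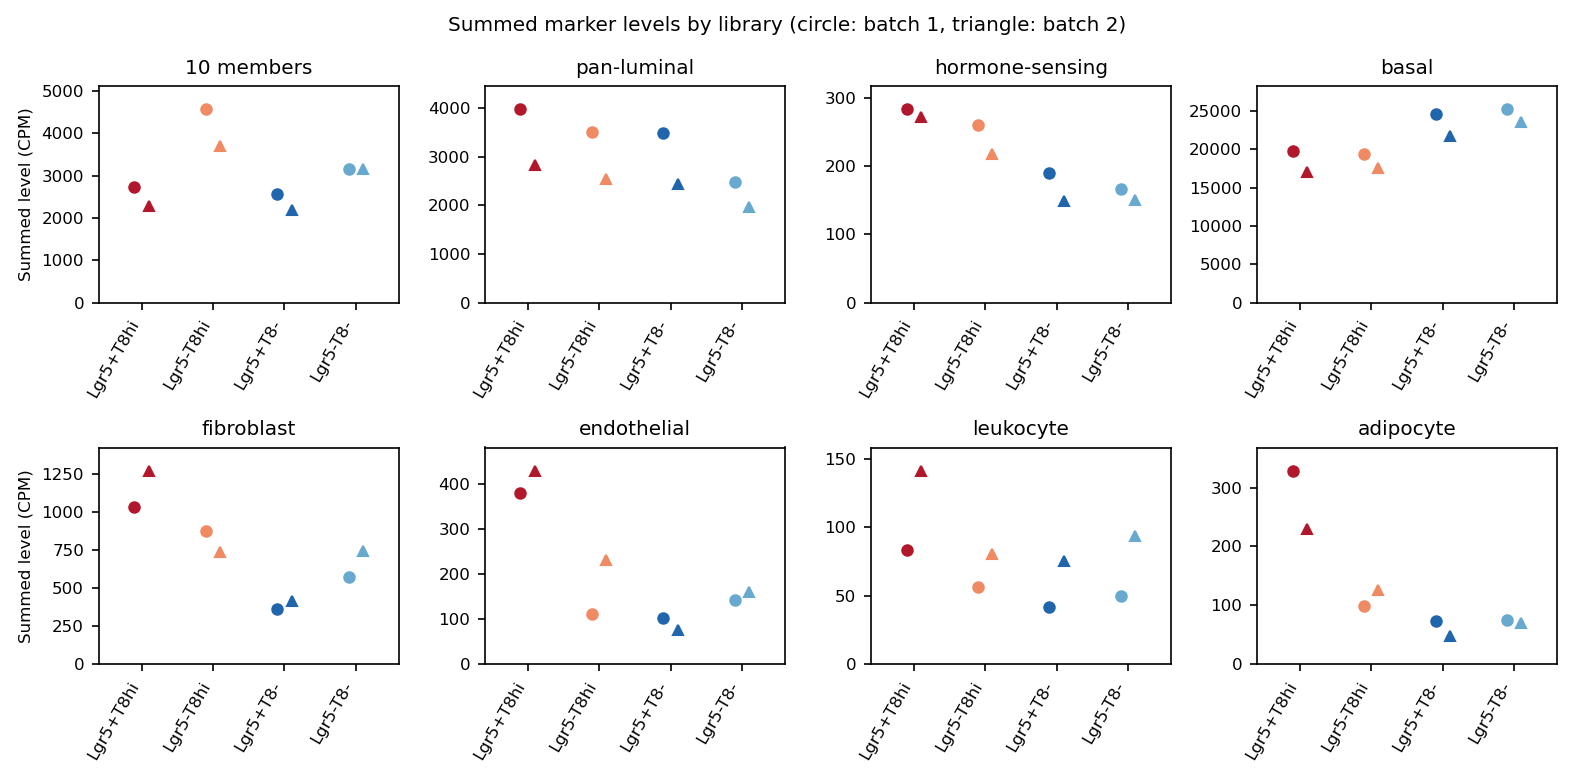
Summed CPM (linear axis from 0, scaled per panel) of the 10 genes and of 7 marker lists in each library; circles are batch 1 and triangles batch 2. The 10 genes are highest in Lgr5-T8hi at 4573 and 3693 CPM, while the fibroblast, endothelial, leukocyte and adipocyte sums are highest in Lgr5+T8hi.

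In each batch, the pan-luminal, hormone-sensing, fibroblast, endothelial, leukocyte, adipocyte and erythroid sums were highest in Lgr5+T8hi. Among the 10 genes Cd14 was highest there too, 6 were highest in Lgr5-T8hi in both batches, and Mfge8 was highest in Lgr5-T8-. The summed level of the 10, most of it from Lcn2, Chil1 and Mfge8, was highest in Lgr5-T8hi. Between Lgr5-T8hi and Lgr5-T8-, the endothelial sum was 110 against 142 CPM in batch 1 and 230.2 against 161 CPM in batch 2, and the leukocyte sum was 56.2 against 49.5 CPM and 80.2 against 93.7 CPM, so neither had the same direction in both batches. The pan-luminal sum was 3499 against 2485 CPM in batch 1 and 2532 against 1962 CPM in batch 2. The hormone-sensing sum was 259 against 167 and 218 against 150 CPM, and the adipocyte sum 98.8 against 75.5 and 126 against 69.1 CPM. Each of these was higher in Lgr5-T8hi in both batches. The fibroblast sum was 879 against 576 CPM in batch 1 and 740 against 749 CPM in batch 2. Much of it came from Dcn, at 230.5 against 278.5 CPM in batch 1 and 210.8 against 396 CPM in batch 2. Dcn was the 1 fibroblast marker called lower in this pair, while 7 of 10 were called higher. For the same pair, the log2 difference in batch 1 and batch 2 was 2.22 and 2.21 for Elf5, 1.83 and 1.62 for Ehf, 1.39 and 1.65 for Aldh1a3 and 1.17 and 1.68 for Cd14. The part of luminal and other cells in these differences was not tested.

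Some of the 10 genes are also known from blood and pigment cells. Mast cell markers, for cells that carry Kit, summed to 7.93 and 11.4 CPM in Lgr5+T8hi, 1.87 and 3.36 CPM in Lgr5-T8hi, 3.81 and 1.40 CPM in Lgr5+T8- and 2.18 and 1.99 CPM in Lgr5-T8-, and 1 of 5 tested, Hdc, was higher in T8hi. Melanocyte markers, for another cell type with Kit, summed to 7.19 to 10.6 CPM in T8hi and 6.98 to 9.86 CPM in T8-. Of 3 tested, 1, Dct, was higher in T8hi, beside 9.13% of all genes tested, and it was also called within each Lgr5 level. Of the 7 melanocyte markers, 5 were below 1 CPM in every library. Neutrophil markers, for a cell type rich in Lcn2, summed to 1.25 to 1.78 CPM in T8hi and 0.845 to 1.06 CPM in T8-, with all 10 below 1 CPM in every library and Retnlg at 0. The part of these cells in the levels of Kit and Lcn2 was not tested.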

How the data were processed

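The authors deposited raw counts of reads per Entrez gene with gene lengths, which had not been normalized, for 8 libraries, per the file headers and values. The tools named, without roles, are limma 3.24.14, edgeR 3.10.2, featureCounts and CASAVA 1.8.2, with the build mm10 (GRCm38), per the submitters' processing notes. The aligner and use of strand are not given in the sources used here. Symbols, positions and promoters came from RefSeq for GRCm38.p6, which matched 25260 of 27164 identifiers. Unmatched ones held 2.56 to 2.86% of counts.

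From the counts, edgeR 4.0.16 (R 4.3.3) quasi-likelihood F-tests were fitted on all 8 libraries with TMM normalization, filterByExpr (minimum count 10) and population plus batch, leaving 3 residual degrees of freedom. P-values were two-sided and Benjamini-Hochberg adjusted over 16526 genes, with a threshold of 0.05. The filter left out 10638 genes. The test was checked on simulated data. Batch comes from the labels and equals the replicate number. Same-numbered libraries deviated together (r = 0.372 to 0.511 over 6 pairs of populations). Replicates differed beyond sampling noise, with chi-square per degree of freedom of 38.3 to 60.9.

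The 10 genes, the lists and the alternatives were chosen with earlier results of these data known. From each related list, up to 3 called genes with the smallest adjusted p for Tspan8 and up to 2 for Lgr5 were named, besides fixed partners. From lists of other cells the 2 most abundant were taken. Likeness was Pearson's r on batch-centred log2 CPM, for genes of at least 5 mean CPM. Plet1os, Retnlg, Dct and Lep were named after their values were seen. Alternatives were no batch term, edgeR's RLE in place of TMM normalization, other filters, DESeq2 1.42.0, limma-voom (limma 3.58.1) and leaving out each library. The GGAA core was searched only after the longer motifs gave no match, as was TATAAA, which is not reported. Floors of 3 counts cover counting error only.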

Additional observations from a re-analysis of the deposited data

Results flagged for a closer look

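Among the genes named beside the 10, 6 had a Tspan8 difference that itself differed between Lgr5+ and Lgr5- (the interaction of edgeR's quasi-likelihood test, log2 scale, 8 libraries, same sign in both batches). The Tspan8 difference was smaller in Lgr5+ for the sort gene Lgr5 by -1.29 ± 0.15 (adjusted p = 0.00164) and for Slpi by -1.21 ± 0.14 (0.00164). It was larger in Lgr5+ for the fibroblast genes Col3a1 by 1.59 ± 0.25 (0.0181) and Dcn by 1.45 ± 0.21 (0.00852), for the globin gene Hbb-bs, at 0.120 to 5.56 CPM, by 4.21 ± 0.55 (0.00282) and for the lipase gene Lpl by 1.04 ± 0.20 (0.0202). None of the 10 luminal progenitor genes was among them. Populations of 2 libraries are too small for a search for outlying libraries.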

How the results depend on the processing

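The batch of the labels pairs the libraries, and the fit without that replicate block called fewer of the 10 genes. Without the block, 6 were higher and 0 lower with Tspan8, 0 higher and 1 lower with Lgr5, 5 and 0 with Tspan8 within Lgr5+, 2 (Elf5 and Ehf) and 0 within Lgr5-, and 0 in either direction for Lgr5 within T8hi or within T8-. Over all genes the calls went from 2421 to 705 for Tspan8, from 1502 to 219 for Lgr5 and from 421 to 1 for the interaction, and from 1560 to 512, 1167 to 147, 552 to 0 and 1464 to 208 for Tspan8 within Lgr5+, within Lgr5-, Lgr5 within T8hi and within T8-. DESeq2 called 2 lower with Tspan8, 1 higher and 4 lower with Lgr5 within T8-, and 1 higher in batch 2. With no filter, 1 (Plet1) was higher with Lgr5 within T8-. The cause was not tested.

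Leaving out 1 library at a time, 7 to 8 were higher and 0 to 2 lower with Tspan8, and 0 to 1 higher and 3 to 6 lower with Lgr5. The lower count for Lgr5 was 3 without Lgr5+T8hi replicate 1 or either Lgr5-T8hi library. Within Lgr5+ 5 to 7 were higher and 0 to 1 lower, within Lgr5- 6 to 8 and 0 to 1. For Lgr5 within T8hi 0 were higher and 0 to 4 lower, and within T8- 0 to 1 and 1 to 4. For the interaction 0 were higher and 0 to 1 lower, and for batch 0 to 2 higher and 3 to 4 lower. A population left with 1 library was assumed to vary like the others. No value changed sign past the threshold in any alternative run. By CPM in place of RPKM, Kit and Aldh1a3, and Elf5 and Ehf, exchanged places.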
